A study of Mus musculus with 12 samples.

Results

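The 10 genes described here are the interleukin 1 ligands Il1a and Il1b, their natural antagonist Il1rn, the signalling receptor Il1r1 and the decoy receptor Il1r2, the inflammasome-processed cytokine Il18, the inflammasome sensor Nlrp3, the protease Casp1, and the partner cytokines Il6 and Tnf. They were taken by symbol as 10 of the 55491 entries of the deposited gene tables, and all 10 were among the 17909 genes that passed the filter on low counts. Interleukin 1 is an alarm cytokine of injured tissue. Its beta form is made as an inactive precursor that caspase 1 cuts after an inflammasome sensor such as NLRP3 has assembled, and IL-18 is released in the same way, so messenger RNA shows only how much precursor could be made. The antagonist occupies the signalling receptor without activating it, the decoy receptor captures ligand without signalling, and TNF and IL-6 are made by many of the same activated macrophages, fibroblasts and epithelial cells. In the bleomycin model of lung fibrosis, interleukin 1 receptor signalling is known as a driver of the early inflammation.

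Whole lungs of 12 C57BL/6J wild-type male mice, aged 10 weeks per the labels, were sequenced in 3 groups of 4. Mice of the nanoparticle group had received 5 daily intravenous doses of 2 mg of polymer particles, a poly(lactide-co-glycolide) core coated with poly(ethylene-alt-maleic anhydride) and 609.22 ± 15.30 nm in diameter, from day 14 to day 18 after bleomycin, and their lungs were taken at day 21. Mice of the vehicle group had phosphate-buffered saline in place of particles and were also taken at day 21. Mice of the day 14 group were taken before any treatment. All 12 mice had been given bleomycin, which damages alveolar epithelium and is followed by scarring, through the mouth and throat at 0.0125 U per mouse (about 0.5 U/kg), and with no lungs from mice without bleomycin the level of these genes before injury is unknown. Gene counts summed to between 24138582 and 28910459 in nanoparticle lungs, between 28001006 and 36208498 in vehicle lungs and between 25706260 and 42714693 in day 14 lungs. The summed level of 10 markers of lung epithelium and endothelium lay between 123200 and 159600 TPM (a transcript level corrected for transcript length and scaled to the same total in each library) in every library. Nanoparticle mouse 3 stood apart: 12 neutrophil markers summed to 5788 TPM there, against 412.5 to 449.8 TPM in the other nanoparticle lungs, 255.8 to 584.3 TPM in vehicle lungs and 158 to 362.3 TPM in day 14 lungs, and none of the 12 was at 0 in any library. Its 13 alveolar macrophage markers summed to 2526 TPM, against 1009 to 1291 TPM in the other nanoparticle lungs, and its 10 interstitial macrophage markers to 883 TPM, against 561.4 to 718.2 TPM. Nanoparticle mouse 2 stood apart in 5 red blood cell markers, at 14360 TPM, against 769.2 to 2631 TPM in the other nanoparticle lungs, 812.9 to 2303 TPM in vehicle lungs and 2179 to 5611 TPM in day 14 lungs. For Il1b, Il1rn, Il1r2, Il18, Nlrp3, Il6 and Tnf, values without nanoparticle mouse 3 are also given.

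Among the 10 genes, the interleukin 1 antagonist Il1rn was lower in vehicle lungs at day 21 than in lungs at day 14, to 0.614 of the day 14 level, and it was the single gene called in any of the 3 comparisons. The cytokines themselves, Il1a, Il1b, Il18, Il6 and Tnf, passed the test in none of them. The standard errors of Il1b, Il1r2 and Il6, from 0.595 to 0.886 on the log2 scale, were the largest of the 10 in every comparison. In edgeR's quasi-likelihood test with Benjamini-Hochberg adjustment over all genes, 1 of the 10 genes had an adjusted p under 0.05 for vehicle against day 14, where 10.3% of all genes tested did. For nanoparticle against day 14, 0 of the 10 did, where 14.7% of all genes did, and for nanoparticle against vehicle 0 of the 10 did, where 0% of all genes did. At an unadjusted p under 0.05 these counts were 4, 2 and 1 of the 10 genes, against 27.3%, 30.8% and 4.25% of all genes. DESeq2 called 2, 1 and 0 of the 10, against 15.1%, 20.9% and 0.0648% of the genes for which it gave an adjusted p. It gave none for Il1r2 in any comparison and none for Il6 in nanoparticle against day 14. By the adjusted p of edgeR the share of the 10 genes called was no higher than that of all genes, and it is not a result about the group. The 2 comparisons with day 14 use the same 4 day 14 lungs. The median log2 fold change of the 10 genes was −0.043 for vehicle against day 14, 0.28 for nanoparticle against day 14 and 0.21 for nanoparticle against vehicle, and that of all genes was 0.0031, 0.0062 and 0.0020.

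The control sequences next to the start sites of Il1rn and Il1b, the antagonist and the ligand whose levels are set against each other here, are shown because Il1rn carries the called difference. The gene Il1rn lies on chromosome 2 of the mouse genome build GRCm38 (chr2:24336853-24351494, plus strand) and has alternative start sites, for which RefSeq (GRCm38.p6) gives 3 windows of 250 bases before and 50 after a start. Its upstream window is chr2:24336610-24336909 and one of its 2 overlapping downstream windows is chr2:24345121-24345420. The gene Il1b lies on the same chromosome (chr2:129364570-129371139, minus strand), and its window is chr2:129371090-129371389. All 10 genes matched a promoter entry, in 14 windows. Capitals mark matches to 3 motifs searched on both strands: TATAAA (the TATA box), TGANTCA (bound by AP-1) and GGGNNNNNCC (a loose form of the NF-kappaB motif).
Il1rn upstream window: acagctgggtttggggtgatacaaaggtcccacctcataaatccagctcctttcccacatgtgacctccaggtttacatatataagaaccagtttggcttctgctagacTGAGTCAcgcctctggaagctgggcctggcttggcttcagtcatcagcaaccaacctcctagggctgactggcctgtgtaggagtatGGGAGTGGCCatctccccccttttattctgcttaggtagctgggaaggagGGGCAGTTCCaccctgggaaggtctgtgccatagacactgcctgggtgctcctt
Il1rn downstream window: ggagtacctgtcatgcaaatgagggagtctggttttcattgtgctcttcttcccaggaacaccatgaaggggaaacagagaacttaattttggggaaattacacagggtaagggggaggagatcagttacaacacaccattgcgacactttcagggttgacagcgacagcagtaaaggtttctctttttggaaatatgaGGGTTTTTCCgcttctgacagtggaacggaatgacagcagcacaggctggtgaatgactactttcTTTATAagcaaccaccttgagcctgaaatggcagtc
Il1b window: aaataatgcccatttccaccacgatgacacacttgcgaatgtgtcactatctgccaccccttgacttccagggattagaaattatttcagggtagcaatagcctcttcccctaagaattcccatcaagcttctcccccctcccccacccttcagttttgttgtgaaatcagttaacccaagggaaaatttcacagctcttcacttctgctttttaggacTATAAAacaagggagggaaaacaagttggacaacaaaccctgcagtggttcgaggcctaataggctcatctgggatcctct
The upstream window of Il1rn held an AP-1 motif whose leftmost base is at −141 from the start site (+1), and NF-kappaB letters at −54 and −4. The downstream window held NF-kappaB letters at −51 and, on the opposite strand, TATA letters at +15. The Il1b window held a TATA box at −31 and neither of the other motifs. Over the 14 windows, 5 held TATAAA, 3 held TGANTCA and 9 held GGGNNNNNCC, with overlapping matches counted once per window. Of 32851 RefSeq windows of the same length, 13.6%, 7.81% and 50.8% held these motifs, so the NF-kappaB letters are present in about every other promoter and a match is not a binding site. The gene-level counts pool the transcripts from all start sites of Il1rn.

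Il1rn, the receptor antagonist, stood at 19.15, 16.9, 23.61 and 12.8 TPM in nanoparticle mice 1 to 4. It stood at 10.43, 13.51, 12.53 and 13.04 TPM in vehicle mice 1 to 4, and at 20.47, 16.28, 22.7 and 19.69 TPM in day 14 mice 1 to 4. The vehicle lungs all lay below the day 14 lungs, while the nanoparticle lungs spread over both ranges, with mouse 4 inside the vehicle range and mouse 3 above the day 14 range. The group means were 18.1 ± 4.51 TPM in nanoparticle lungs, 12.4 ± 1.36 TPM in vehicle lungs and 19.8 ± 2.66 TPM in day 14 lungs (SD, n = 4 each). Il1rn fell in vehicle lungs relative to day 14, with a log2 fold change of −0.70 (SE 0.154, 95% confidence interval −1.03 to −0.37, edgeR adjusted p = 0.0139). The call was lost without day 14 mouse 3, where the log2 fold change was −0.63 and edgeR's adjusted p = 0.0514, and over all alternatives the adjusted p ranged between 0.00049 and 0.0514. In nanoparticle lungs Il1rn differed from day 14 by −0.24 on the log2 scale (SE 0.153, edgeR adjusted p = 0.314). Set directly against vehicle lungs, nanoparticle lungs were higher by 0.47 on the log2 scale (interval 0.13 to 0.80), which had an unadjusted edgeR p of 0.00986 and an adjusted p of 0.95, so a difference between the 2 treatments was not shown. Without nanoparticle mouse 3 this difference was 0.31 and the one from day 14 −0.38 (edgeR adjusted p = 1 and 0.0683). Without nanoparticle mouse 4 they were 0.60 and −0.10 (adjusted p = 0.252 and 0.659).

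In whole lung, fewer cells that make a transcript and less transcript per cell cannot be told apart. Beside Il1rn, 10 interstitial macrophage markers summed to 561.4 to 883 TPM in nanoparticle lungs, 572.3 to 652.1 TPM in vehicle lungs and 847.4 to 1023 TPM in day 14 lungs. For these markers too, and for the alveolar macrophage and classical monocyte markers given next, the vehicle lungs all lay below the day 14 lungs. Of the 10, 4 fell in vehicle lungs and 2 in nanoparticle lungs relative to day 14, and 0 rose. Of all genes, 6.51% were called lower and 3.79% higher in vehicle lungs, and 8.56% lower and 6.16% higher in nanoparticle lungs. With 1 library left out at a time, 1 to 4 of the 10 markers fell in vehicle lungs and 0 to 4 in nanoparticle lungs. In the same settings 0 rose in vehicle lungs and 0 to 1 in nanoparticle lungs. The complement gene C1qb, a marker of tissue macrophages, fell by 0.90 on the log2 scale in vehicle lungs (edgeR adjusted p = 0.0133) and by 0.76 in nanoparticle lungs (adjusted p = 0.0211), the second of which was lost without day 14 mouse 2 or 3 or nanoparticle mouse 2 (adjusted p = 0.0550 to 0.0615). Alveolar macrophage markers, 13 in number, summed to 1009 to 2526 TPM in nanoparticle lungs, 1135 to 1218 TPM in vehicle lungs and 1277 to 1823 TPM in day 14 lungs, with 2 higher and 1 lower in vehicle lungs and 2 higher and 2 lower in nanoparticle lungs relative to day 14. With 1 library left out at a time, 1 to 2 were higher and 0 to 3 lower in vehicle lungs, and 1 to 2 higher and 0 to 4 lower in nanoparticle lungs. Classical monocyte markers, 8 in number, summed to 492.2 to 724.1 TPM in nanoparticle lungs, 511.2 to 627.3 TPM in vehicle lungs and 722.9 to 890.6 TPM in day 14 lungs. None of these markers was at 0 in any library, and the part of these cells in the Il1rn result was not tested.

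**Figure D1:**
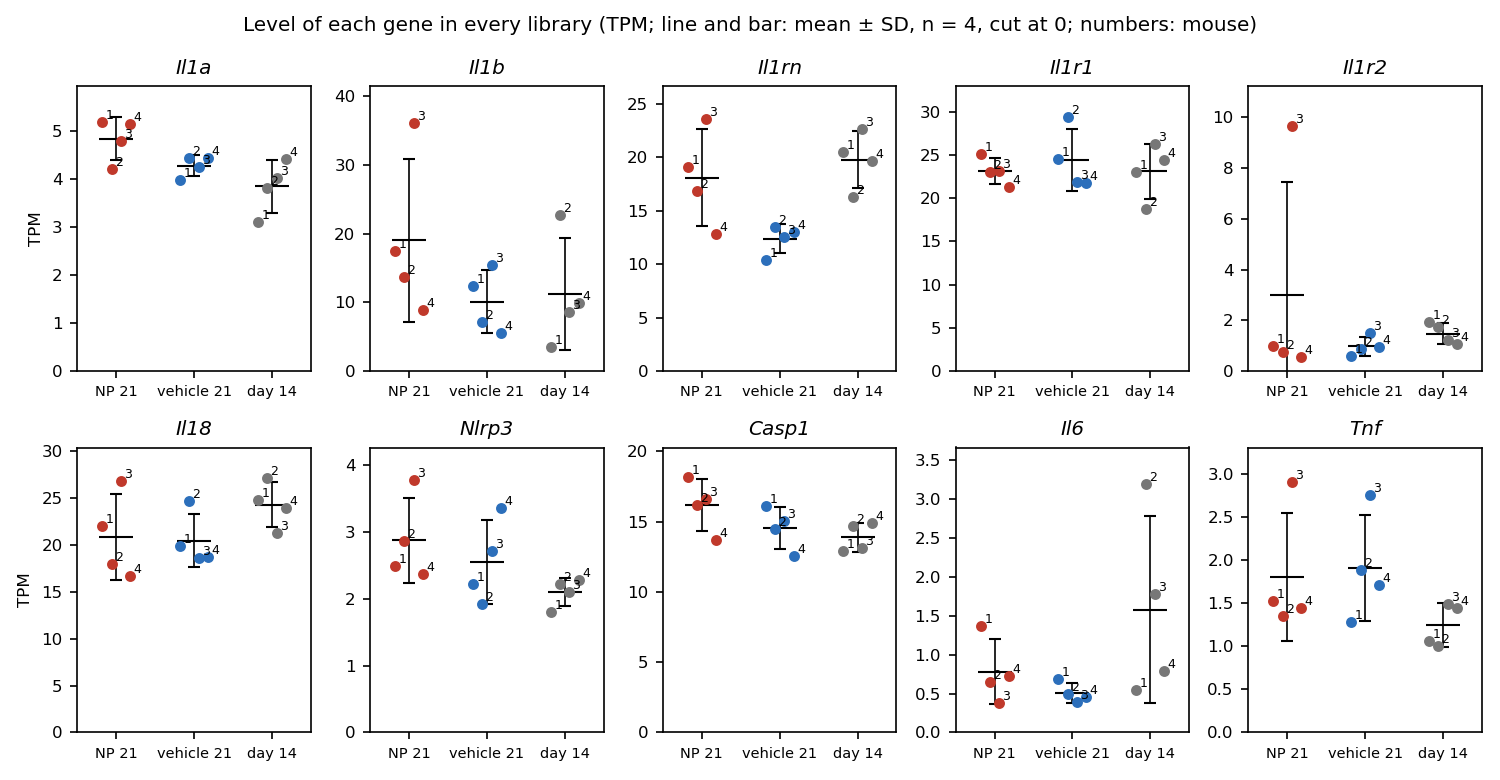
Level of each of the 10 genes in TPM (vertical axes, linear, from 0) in nanoparticle lungs at day 21, vehicle lungs at day 21 and day 14 lungs, with 1 numbered point per mouse and the mean ± SD of 4 as a line and bar (the bar of Il1r2 in nanoparticle lungs is cut at 0). The 4 vehicle lungs lie below the 4 day 14 lungs for Il1rn, and nanoparticle mouse 3 is the highest point for Il1b, Il1rn, Il1r2, Nlrp3 and Tnf.

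Of the ligands, Il1b, the secreted form that activated myeloid cells make, stood at 17.4, 13.64, 36.06 and 8.9 TPM in nanoparticle mice 1 to 4. It stood at 12.39, 7.05, 15.38 and 5.49 TPM in vehicle mice and at 3.48, 22.71, 8.56 and 9.89 TPM in day 14 mice. The 3 groups overlapped widely, and day 14 lungs alone spanned 6.53-fold between their lowest and highest mouse. The log2 fold changes were 0.93 (SE 0.596) for nanoparticle against vehicle, 0.78 (SE 0.597) for nanoparticle against day 14 and −0.15 (SE 0.605) for vehicle against day 14, with edgeR adjusted p of 0.999, 0.413 and 0.9. Without nanoparticle mouse 3 the values against vehicle and day 14 were 0.38 and 0.24. Without day 14 mouse 2, nanoparticle against day 14 was 1.43 and vehicle against day 14 was 0.51. An antisense gene, Il1bos, overlaps Il1b on the plus strand. Its counts summed to 131 over the 12 libraries, and since the strand setting of the counting was not given in the sources used here, reads of the 2 genes may not have been told apart.

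Il1a, the cell-bound alarm form that is active without caspase 1, had a narrower spread. It stood at 5.2, 4.22, 4.8 and 5.15 TPM in nanoparticle mice 1 to 4, at 3.99, 4.44, 4.25 and 4.45 TPM in vehicle mice and at 3.11, 3.82, 4.03 and 4.43 TPM in day 14 mice. Nanoparticle mouse 2 lay inside both other groups, and the other 3 nanoparticle mice were the highest of all 12. Against day 14 the log2 fold change was 0.33 in nanoparticle lungs (interval 0.073 to 0.58, edgeR adjusted p = 0.0779) and 0.15 in vehicle lungs (adjusted p = 0.431), and nanoparticle against vehicle it was 0.18 (adjusted p = 0.999). DESeq2 gave Il1a 0.34 for nanoparticle against day 14 with an adjusted p of 0.0493, and over all alternatives this adjusted p ranged between 0.0493 and 0.224. The gene Gm14023 overlaps Il1a on the opposite strand (166 counts over the 12 libraries), so some reads may not have been told apart.

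The balance of antagonist and ligand within each lung is described without a test. The ratio of Il1rn to Il1b, in TPM, lay between 0.655 and 1.44 in nanoparticle lungs (median 1.17), between 0.815 and 2.38 in vehicle lungs (median 1.381) and between 0.717 and 5.88 in day 14 lungs (median 2.32). The ranges overlapped. The highest ratio was that of day 14 mouse 1, which had the least Il1b of all 12, and the lowest that of nanoparticle mouse 3, which had the most. The ratio of Il1a to Il1b lay between 0.133 and 0.579 in nanoparticle lungs, between 0.276 and 0.811 in vehicle lungs and between 0.168 and 0.894 in day 14 lungs. Il1b was therefore the more abundant transcript of the 2 ligands in every lung.

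**Figure D2:**
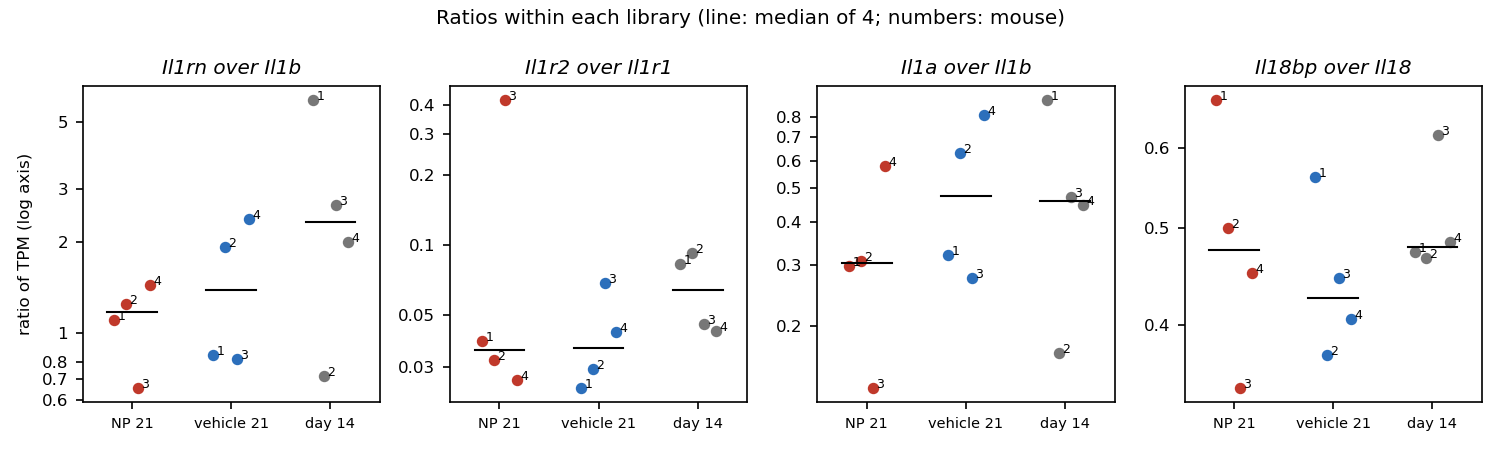
Ratios of TPM within each library on log axes for Il1rn over Il1b, Il1r2 over Il1r1, Il1a over Il1b and Il18bp over Il18, with 1 numbered point per mouse and the median of 4 as a line. The ratio of Il1rn to Il1b has medians of 1.17 in nanoparticle lungs, 1.381 in vehicle lungs and 2.32 in day 14 lungs, with overlapping ranges, and the ratio of Il1r2 to Il1r1 is highest in nanoparticle mouse 3 at 0.417.

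Il1r1, the receptor through which both ligands signal, was among the most even of the 10 genes. It stood at 25.08, 23.07, 23.18 and 21.32 TPM in nanoparticle mice 1 to 4, at 24.54, 29.47, 21.91 and 21.82 TPM in vehicle mice and at 23.08, 18.77, 26.23 and 24.49 TPM in day 14 mice. The groups overlapped. The log2 fold change was −0.067 for nanoparticle against vehicle (interval −0.28 to 0.15), −0.0028 for nanoparticle against day 14 (−0.22 to 0.21) and 0.065 for vehicle against day 14 (−0.15 to 0.28), so a change of more than 0.28 on the log2 scale either way lay outside these intervals.

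Il1r2, the decoy receptor that neutrophils and some macrophages carry, stood at 0.97, 0.74, 9.66 and 0.56 TPM in nanoparticle mice 1 to 4. It stood at 0.6, 0.87, 1.5 and 0.93 TPM in vehicle mice and at 1.92, 1.73, 1.2 and 1.05 TPM in day 14 mice. A single lung, nanoparticle mouse 3, was far above all others, and the other 3 nanoparticle lungs all lay below the 4 day 14 lungs. With all libraries, Il1r2 in nanoparticle lungs differed from day 14 by 0.94 on the log2 scale (SE 0.827, edgeR adjusted p = 0.479). Without nanoparticle mouse 3 the direction turned to −1.15 and passed the test (edgeR adjusted p = 0.037). Against vehicle the log2 fold change was 1.58 (SE 0.859, adjusted p = 0.999) with that mouse and −0.53 without it. In vehicle lungs Il1r2 differed from day 14 by −0.63 (SE 0.886, adjusted p = 0.687), or −0.62 with an adjusted p of 0.176 when nanoparticle mouse 3 was left out of the shared fit. Relative to Il1r1, in TPM, Il1r2 lay between 0.0263 and 0.417 in nanoparticle lungs, between 0.0244 and 0.0685 in vehicle lungs and between 0.0429 and 0.0922 in day 14 lungs.

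Nanoparticle mouse 3, the lung with the neutrophil markers at 5788 TPM, ranked highest of the 12 lungs in Il1b, Il1r2, Il1rn, Nlrp3 and Tnf and lowest in Il6. Within the neutrophil list, 12 of 12 markers had positive log2 fold changes in nanoparticle lungs against both other groups (median 2.22 against day 14 and 1.88 against vehicle). With all libraries, 0 of 12 passed the test in any comparison. These medians include nanoparticle mouse 3, and the other nanoparticle lungs, at 412.5 to 449.8 TPM, lay inside the vehicle range of 255.8 to 584.3 TPM. With 1 library left out at a time, 0 to 1 markers were called higher in nanoparticle lungs relative to day 14. Without day 14 mouse 2 and nanoparticle mouse 3 together, 2 were. S100a8, whose protein is abundant in neutrophils, averaged 669 ± 1060 TPM in nanoparticle lungs, 135 ± 52.1 TPM in vehicle lungs and 84.0 ± 37.3 TPM in day 14 lungs (SD, n = 4 each). Ly6g, a surface marker that defines mouse neutrophils, averaged 7.30 ± 12.2, 0.645 ± 0.401 and 0.522 ± 0.251 TPM in the same 3 groups. The spread in nanoparticle lungs exceeded the mean for both. What part neutrophils or macrophages had in the levels of the interleukin 1 genes in this lung was not tested.

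**Figure D3:**
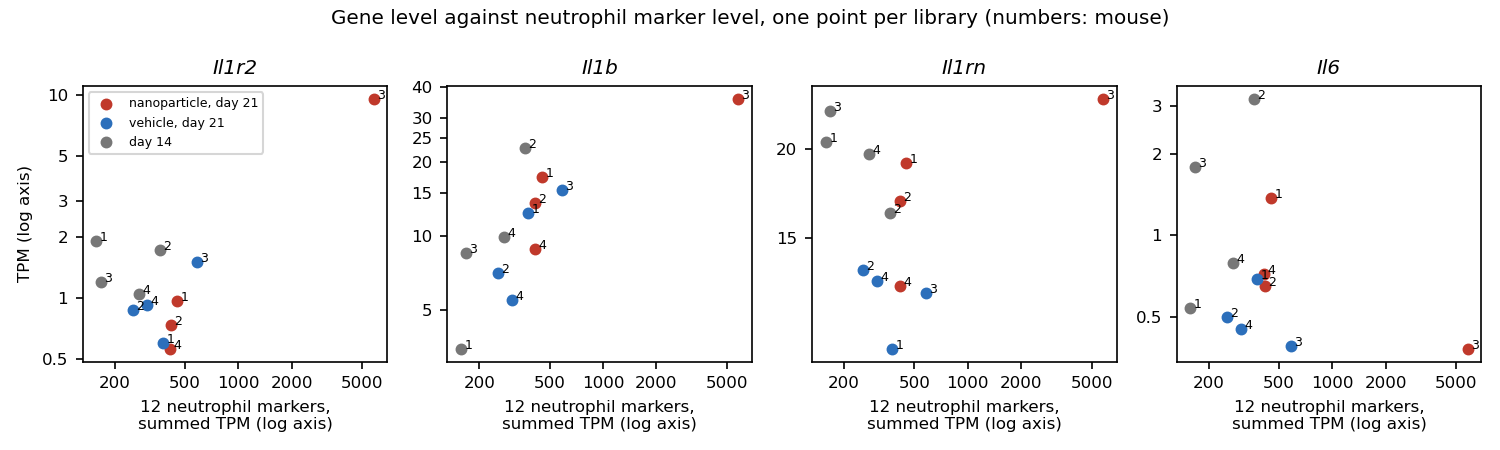
Level of Il1r2, Il1b, Il1rn and Il6 in TPM (log axes) against the summed TPM of 12 neutrophil markers (log axes), with 1 numbered point per mouse in nanoparticle lungs, vehicle lungs and day 14 lungs. Nanoparticle mouse 3 lies alone at 5788 TPM of neutrophil markers, with the highest Il1r2, Il1b and Il1rn and the lowest Il6.

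Of the inflammasome genes among the 10, Nlrp3, Casp1 and Il18, none passed the test in any comparison with all libraries. Nlrp3, the sensor, stood at 2.49, 2.86, 3.78 and 2.37 TPM in nanoparticle mice 1 to 4, at 2.22, 1.92, 2.72 and 3.36 TPM in vehicle mice and at 1.81, 2.22, 2.1 and 2.28 TPM in day 14 mice. In TPM the nanoparticle lungs all lay above the day 14 lungs, and in CPM (counts scaled to library size and not corrected for length) the ranges overlapped, at 5.02 to 8.31 CPM in nanoparticle lungs and 4.54 to 5.80 CPM in day 14 lungs. For TPM, groups that did not overlap in either direction were found for 1 of the 10 genes in this comparison (15.7% of all genes), for 1 in vehicle against day 14 (14.6%) and for 0 in nanoparticle against vehicle (3.07%). From counts, the log2 fold change of Nlrp3 was 0.25 for nanoparticle against vehicle, 0.31 for nanoparticle against day 14 (SE 0.171, edgeR adjusted p = 0.237) and 0.062 for vehicle against day 14. Without nanoparticle mouse 3 nanoparticle against vehicle was 0.11 and nanoparticle against day 14 was 0.18.

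Casp1, the protease that matures IL-1 beta and IL-18, stood at 18.14, 16.2, 16.61 and 13.72 TPM in nanoparticle mice 1 to 4, at 16.13, 14.45, 15.05 and 12.52 TPM in vehicle mice and at 12.9, 14.68, 13.1 and 14.87 TPM in day 14 mice. The ranges overlapped, and 3 of the 4 nanoparticle lungs were above all day 14 lungs. The log2 fold change was 0.16 for nanoparticle against vehicle (adjusted p = 0.999 in edgeR), 0.25 for nanoparticle against day 14 (interval 0.051 to 0.45, adjusted p = 0.0845) and 0.092 for vehicle against day 14 (adjusted p = 0.55). Il18, which epithelial cells and macrophages store as a precursor, stood at 22.03, 17.93, 26.81 and 16.73 TPM in nanoparticle mice 1 to 4, at 19.9, 24.67, 18.62 and 18.7 TPM in vehicle mice and at 24.83, 27.1, 21.33 and 23.96 TPM in day 14 mice. Nanoparticle mice 1 and 3 and vehicle mouse 2 lay inside the day 14 range, and the other 5 lungs taken at day 21 lay below it. The log2 fold change of Il18 was 0.054 for nanoparticle against vehicle, −0.25 for nanoparticle against day 14 (edgeR adjusted p = 0.228) and −0.30 for vehicle against day 14 (adjusted p = 0.162). Without nanoparticle mouse 3, Il18 was lower in nanoparticle lungs than at day 14 by a log2 fold change of −0.39 that passed the test (adjusted p = 0.0422), and nanoparticle against vehicle was −0.091. Its soluble inhibitor Il18bp, relative to Il18 in TPM, lay between 0.346 and 0.67 in nanoparticle lungs, between 0.373 and 0.562 in vehicle lungs and between 0.466 and 0.619 in day 14 lungs. The Il18 locus overlaps Bco2 on the opposite strand (639 counts over the 12 libraries), so some reads may not have been told apart.

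Of the partner cytokines, Il6, an inducer of the acute phase response made by fibroblasts and macrophages, was near the lower end of what these libraries can measure. It stood at 1.37, 0.65, 0.38 and 0.72 TPM in nanoparticle mice 1 to 4 (29, 14, 5 and 12 counts), at 0.69, 0.5, 0.39 and 0.45 TPM in vehicle mice (10, 11, 10 and 9 counts) and at 0.54, 3.19, 1.78 and 0.79 TPM in day 14 mice (10, 60, 33 and 13 counts). Day 14 mice 2 and 3 were the highest of the 12, and day 14 mouse 1 lay inside the vehicle range. The exact 95% Poisson interval was 45.8 to 77.2 counts for day 14 mouse 2 and 1.62 to 11.7 counts for nanoparticle mouse 3, and covers counting error alone. In vehicle lungs Il6 differed from day 14 by −1.72 on the log2 scale (SE 0.628, edgeR adjusted p = 0.0974), and in nanoparticle lungs by −0.86 (SE 0.595, adjusted p = 0.353). Nanoparticle against vehicle gave 0.86 (SE 0.672, adjusted p = 0.999). Without nanoparticle mouse 1 the differences of nanoparticle lungs were 0.38 from vehicle and −1.33 from day 14, and without nanoparticle mouse 3 they were 1.13 and −0.57. The vehicle difference passed in DESeq2 (−1.75, adjusted p = 0.0351) and in edgeR without day 14 mouse 1 (−2.09, adjusted p = 0.0373), and it was −0.99 without day 14 mouse 2 (adjusted p = 0.266), which also brought the nanoparticle difference to −0.14 (adjusted p = 0.894). Over all alternatives its adjusted p ranged between 0.0351 and 0.266.

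Tnf, the early macrophage cytokine, stood at 1.52, 1.35, 2.91 and 1.44 TPM in nanoparticle mice 1 to 4, at 1.28, 1.89, 2.75 and 1.71 TPM in vehicle mice and at 1.06, 1.0, 1.49 and 1.44 TPM in day 14 mice. Mouse 3 was the highest in each group, and each pair of groups overlapped. The log2 fold change was −0.093 for nanoparticle against vehicle, 0.53 for nanoparticle against day 14 (SE 0.29, edgeR adjusted p = 0.235) and 0.62 for vehicle against day 14 (SE 0.285, adjusted p = 0.176). Without nanoparticle mouse 3 the first was −0.42 and the second 0.21.

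**Figure D4:**
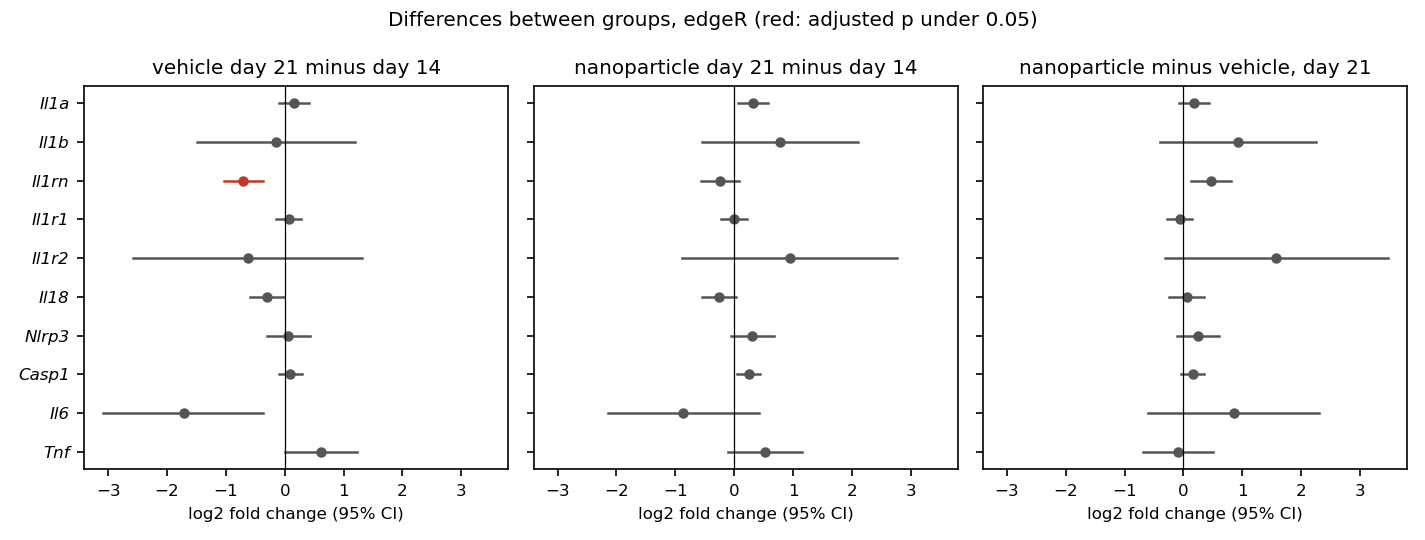
log2 fold changes of the 10 genes with 95% confidence intervals (horizontal axis) from edgeR for vehicle against day 14, nanoparticle against day 14 and nanoparticle against vehicle, with genes of adjusted p under 0.05 in red. Il1rn in vehicle against day 14, at −0.70, is the single red point, and Il1b, Il1r2 and Il6 have the widest intervals.

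The order of the mean levels in TPM placed Il1r1 (23.2), Il18 (20.9), Il1b (19.0), Il1rn (18.1) and Casp1 (16.2) above Il1a (4.84), Il1r2 (2.98), Nlrp3 (2.88), Tnf (1.80) and Il6 (0.78) in nanoparticle lungs. In these lungs the ranges of all neighbours in the order overlapped except those of Casp1 and Il1a. In vehicle lungs Il1r1 (24.4) and Il18 (20.5) stood above Casp1 (14.5), Il1rn (12.4) and Il1b (10.1), then Il1a (4.28), and then Nlrp3 (2.56), Tnf (1.91), Il1r2 (0.975) and Il6 (0.507). The ranges of Il18 and Casp1, of Il1b and Il1a, and of Il1a and Nlrp3 did not overlap there. In day 14 lungs Il18 (24.3), Il1r1 (23.1) and Il1rn (19.8) stood above Casp1 (13.9) and Il1b (11.2), and Il1a (3.85) above Nlrp3 (2.10), Il6 (1.57), Il1r2 (1.48) and Tnf (1.25). There the ranges of Il1rn and Casp1 and of Il1a and Nlrp3 did not overlap. Il1rn lay above the range of Casp1 at day 14 and overlapped it in both day 21 groups.

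The genes most like these in pattern were sought over the 12 libraries among 13230 genes, by Pearson's r of log2 CPM, for the 3 genes of widest range. The libraries share groups and cell makeup, and r is a description. Il1r2 was closest to Alox5ap, which is needed for leukotriene synthesis in myeloid cells (r = 0.965), to Mcemp1, a myeloid membrane protein gene (0.961), and to Ugt1a7c (0.952), and these values were 0.787, 0.865 and 0.725 without the libraries farthest from the median, nanoparticle mouse 3 and day 14 mouse 1. Il1b was closest to Slfn1 (0.893), Mkrn2 (0.878) and Pilrb1 (0.872), and without the same libraries these were 0.839, 0.841 and 0.794. Il6 was closest to Ctse, the protease cathepsin E (0.951), Spats2l (0.885) and Egr3, an immediate early transcription factor (0.879), and without day 14 mice 2 and 3 these were 0.923, 0.797 and 0.863. Il1rn, added after its values were seen, was closest to the leukocyte integrin Itgb2 (0.953), the macrophage scavenger receptor Msr1 (0.951) and the TNF receptor Tnfrsf1b (0.949), and without vehicle mouse 1 and nanoparticle mouse 4 these were 0.94, 0.915 and 0.916.

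Other genes of the same pathways are given as counts of genes called by edgeR, beside 3.79% of all genes higher and 6.51% lower in vehicle lungs, and 6.16% higher and 8.56% lower in nanoparticle lungs, each relative to day 14. In the comparison of nanoparticle with vehicle lungs, 0 genes of any of these lists were called. Of 7 further interleukin 1 family ligands and binding proteins, 3 passed the filter on low counts and 0 changed. Il33, the alarmin of alveolar epithelium, averaged 71.3 ± 4.38 TPM in nanoparticle lungs, 74.6 ± 8.04 TPM in vehicle lungs and 95.9 ± 21.2 TPM in day 14 lungs (SD, n = 4 each), a log2 fold change against day 14 of −0.44 in nanoparticle lungs (adjusted p = 0.0519) and −0.38 in vehicle lungs (adjusted p = 0.103). Il1f9, which encodes the cytokine IL-36 gamma, averaged 4.75 ± 5.54 TPM in nanoparticle lungs, 2.06 ± 0.445 TPM in vehicle lungs and 1.23 ± 0.436 TPM in day 14 lungs, a log2 fold change against day 14 of 1.95 in nanoparticle lungs (SE 0.646, adjusted p = 0.0661) and 0.75 in vehicle lungs (adjusted p = 0.499). Il18bp, the IL-18 binding protein, differed from day 14 by −0.19 in nanoparticle lungs and −0.33 in vehicle lungs (adjusted p = 0.456 and 0.213). These 3 genes passed the test in no comparison with all libraries and were named after their values were seen. With 1 library left out at a time, 0 to 1 genes of this list were lower in each day 21 group relative to day 14. In nanoparticle lungs 0 to 1 were higher. Of 18 genes of interleukin 1 and interleukin 18 receptor signalling, 4 rose and 1 fell in nanoparticle lungs and 1 rose and 1 fell in vehicle lungs relative to day 14. Il18rap, the accessory chain of the IL-18 receptor, averaged 7.73 ± 1.24 TPM in nanoparticle lungs and 4.88 ± 0.308 TPM in day 14 lungs and rose by 0.65 on the log2 scale (edgeR adjusted p = 0.00812). Il1rl2, the receptor of the IL-36 cytokines, fell by 0.30 in nanoparticle lungs (adjusted p = 0.00531) and by 0.26 in vehicle lungs (adjusted p = 0.0164). The nanoparticle calls of these 2 genes held with each library left out in turn, and the vehicle call of Il1rl2 was lost without day 14 mouse 3 or vehicle mouse 1 or 3 (adjusted p = 0.0514 to 0.0699). The signalling genes Irak2 (0.21), Irak3 (0.34) and Tab3 (0.29) rose in nanoparticle lungs, and each lost its call without any 1 of 3 to 5 libraries, among day 14 mice 1 and 3 and nanoparticle mice 1 to 4 (adjusted p = 0.0504 to 0.0989). Il18r1, the ligand-binding chain of the IL-18 receptor, rose by 0.34 in vehicle lungs and lost its call without any 1 of day 14 mice 1 to 3 or vehicle mice 1, 2 and 4 (adjusted p = 0.0585 to 0.117).

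Of 19 further inflammasome genes tested, of 20 listed, 4 rose and 0 fell in nanoparticle lungs, and 1 rose and 1 fell in vehicle lungs, relative to day 14. Mefv, the pyrin sensor of myeloid cells, averaged 1.55 ± 0.707 TPM in nanoparticle lungs and 0.622 ± 0.184 TPM in day 14 lungs. It rose by 1.36 on the log2 scale (edgeR adjusted p = 0.0122), a call that held with each library left out in turn. Against vehicle lungs, neither Mefv nor any other gene of this list was called in nanoparticle lungs. Txnip, a thioredoxin inhibitor that binds NLRP3, rose by 0.50 in nanoparticle lungs and by 0.54 in vehicle lungs (adjusted p = 0.0237 and 0.0208). Its calls were lost without day 14 mouse 2 or nanoparticle mouse 2 or 4 in the first case and without vehicle mouse 3 in the second (adjusted p = 0.0552 to 0.0755 and 0.0651). Nlrc4, the sensor adaptor for bacterial flagellin, rose by 0.35 in nanoparticle lungs (adjusted p = 0.0197), a call that leaving out day 14 mouse 3 or nanoparticle mouse 2 ended (adjusted p = 0.0571 and 0.0657). Naip6 rose by 0.34, a value that is uncertain because the Naip genes are near-identical copies whose reads can be split in counting, and Ninj1, which ruptures the membrane of dying cells, fell by 0.38 in vehicle lungs, and each lost its call without any 1 of 9 libraries (adjusted p = 0.0505 to 0.0911 for Naip6 and 0.061 to 0.135 for Ninj1). For Naip6 these were day 14 mice 1 to 3, vehicle mice 1 and 3 and all nanoparticle mice, and for Ninj1 all day 14 mice, nanoparticle mice 1 and 2 and vehicle mice 1 to 3. Pycard, the adaptor that joins NLRP3 to caspase 1, differed by −0.27 in nanoparticle lungs and −0.15 in vehicle lungs (adjusted p = 0.136 and 0.444), and Gsdmd, the pore through which IL-1 beta leaves the cell, by 0.14 and 0.065 (adjusted p = 0.251 and 0.635). Both were named after their values were seen.

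Of 15 genes of IL-6 family signalling, 0 rose and 2 fell in each day 21 group relative to day 14. Socs3, the feedback inhibitor that IL-6 induces, averaged 43.0 ± 13.7 TPM in nanoparticle lungs, 35.2 ± 4.05 TPM in vehicle lungs and 64.9 ± 9.30 TPM in day 14 lungs (SD, n = 4 each). The vehicle lungs all lay below the day 14 lungs, and the nanoparticle lungs overlapped them. Socs3 fell by 0.90 on the log2 scale in vehicle lungs (edgeR adjusted p = 0.0131), a call that held with each library left out in turn. It fell by 0.62 in nanoparticle lungs (adjusted p = 0.044), a call that was lost without any 1 of 11 libraries, all but nanoparticle mouse 3 (adjusted p = 0.0534 to 0.119). Il11, a profibrotic cytokine of the family, fell by 0.73 in nanoparticle lungs and Osmr, the oncostatin M receptor, by 0.39 in vehicle lungs, and they lost their calls without any 1 of 7 and 8 libraries (adjusted p = 0.0553 to 0.0893 and 0.0602 to 0.132). For Il11 these were day 14 mice 1 to 3 and all nanoparticle mice, and for Osmr day 14 mice 1, 3 and 4, nanoparticle mouse 1 and all vehicle mice.

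Of 14 genes of TNF signalling, 1 rose and 1 fell in nanoparticle lungs, and 1 rose and 2 fell in vehicle lungs, relative to day 14. Birc3, an inhibitor of cell death in the TNF receptor complex, averaged 55.8 ± 5.38 TPM in nanoparticle lungs and 43.5 ± 5.71 TPM in day 14 lungs. It rose by 0.25 on the log2 scale (edgeR adjusted p = 0.0098), with each library left out in turn as well. No gene of this list, Birc3 included, was called in nanoparticle against vehicle lungs. Tnfrsf1b, the second TNF receptor, fell by 0.41 in vehicle lungs (adjusted p = 0.0307), and Traf1, an adaptor of that receptor, rose by 0.33 (adjusted p = 0.0176). Ripk1, the kinase of the complex, fell by 0.22 in vehicle lungs and by 0.20 in nanoparticle lungs (adjusted p = 0.0321 and 0.0412). These calls were lost without any 1 of 2 to 8 libraries, day 14 mouse 3 among them each time (adjusted p = 0.0538 to 0.115). The others were day 14 mouse 1 and vehicle mice 1 to 3 for Tnfrsf1b, vehicle mouse 3 for Traf1, day 14 mice 1 and 4 and vehicle mice 1 to 3 for Ripk1 in vehicle lungs, and day 14 mice 1 and 4, nanoparticle mice 2 to 4 and vehicle mice 1 and 3 for Ripk1 in nanoparticle lungs.

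Of 21 NF-kappaB factors and genes that NF-kappaB induces (of 22 listed), 0 rose and 1 fell in nanoparticle lungs, and 0 rose and 4 fell in vehicle lungs, relative to day 14. Icam1, the adhesion molecule that holds leukocytes to endothelium, averaged 339 ± 17.3 TPM in nanoparticle lungs, 339 ± 10.0 TPM in vehicle lungs and 414 ± 25.4 TPM in day 14 lungs (SD, n = 4 each). It fell by 0.30 on the log2 scale in both (edgeR adjusted p = 0.00659 in nanoparticle and 0.00986 in vehicle lungs), calls that held with each library left out in turn. The chemokine Ccl2, which recruits monocytes, fell by 1.18 in vehicle lungs (adjusted p = 0.0178), as did Bcl3 by 0.52 (adjusted p = 0.0417) and the NF-kappaB subunit Nfkb2 by 0.30 (adjusted p = 0.017). The vehicle calls of Ccl2 and Nfkb2 were lost without day 14 mouse 3 or vehicle mouse 3, and that of Ccl2 also without vehicle mouse 1 (adjusted p = 0.0533 to 0.0666). The call of Bcl3 was lost without any 1 of 9 libraries, day 14 mice 2 to 4, nanoparticle mice 1 and 2 and all vehicle mice (adjusted p = 0.0535 to 0.124). The median log2 fold change over the 21 genes was −0.046 in nanoparticle lungs and −0.22 in vehicle lungs relative to day 14, beside 0.0062 and 0.0031 over all genes.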

How the data were processed

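Per the labels' protocols, RNA of all 5 lung lobes, freed of large airway and trachea, had been extracted in TRIzol and its polyA fraction sequenced with paired reads of 151 bp. Per the submitters' processing notes, the build was GRCm38 and the tools were RSEM 1.3.3, STAR 2.7.8a, cutadapt 4.8, MultiQC 1.20 and FastQC 0.11.8. Neither annotation release nor strand setting is given in the sources used here. RSEM's expected counts had been deposited by the authors as whole numbers per gene. The TPM values were deposited by the authors per gene and library. FPKM values were not used. Of 55491 entries, 21736 had no count, and 0 columns lacked a label.

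Counts were tested with edgeR 4.0.16 in R 4.3.3: filterByExpr by group (minimum count 10, minimum total 15; 17909 genes), TMM scaling, and 1 robust quasi-likelihood fit of all 12 libraries with a group term, with two-sided contrasts and Benjamini-Hochberg adjustment over all genes (threshold 0.05). The fold changes of a list's genes come from this fit. Fold changes are from counts, and levels are TPM. TPM depends on the transcript length RSEM assigned in each library, so the 2 can differ. No pair of libraries of a group agreed within sampling noise. The labels name separate mice. Each p-value of this fit sets a difference between groups against the spread between mice, which is estimated over all 3 groups together. Coordinates are from GENCODE M21 on GRCm38 and promoters from RefSeq on GRCm38.p6. The scripts were tested on simulated data. The alternatives were DESeq2 1.42.0, limma 3.58.1 on log2(TPM + 1) or log2(TPM + 0.1) over genes of mean TPM of at least 0.5, other scalings and filters, the 2 groups compared alone, a replicate block, and each library left out in turn.

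The 10 genes, the pathway and marker lists and the tests were chosen with earlier results of these data known. Genes of a pathway list were named by a rule, up to 4 of smallest p among those called in a comparison (other genes are marked where named), together with all 10 genes of the report.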

Additional observations from a re-analysis of the deposited data

Results flagged for a closer look

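Among 30 groups of 4 libraries (10 genes in 3 groups), Dixon's test at the 95% level set 2 lungs apart, both nanoparticle mouse 3, and chance sets apart about 1 group in 20. For Il1r2, the decoy receptor, this mouse had 9.66 TPM and the nearest of the other nanoparticle lungs 0.97 TPM, a gap of 0.955 of the group's range. For Tnf it had 2.91 TPM and the nearest other 1.52 TPM, a gap of 0.891 of the range. The same lung had neutrophil markers at 5788 TPM, against 412.5 to 449.8 TPM in the other nanoparticle lungs, alveolar macrophage markers at 2526 TPM, against 1009 to 1291 TPM, and interstitial macrophage markers at 883 TPM, against 561.4 to 718.2 TPM. The part of these cells in the levels of Il1r2 and Tnf was not tested.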

How the results depend on the processing

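Of the log2 fold changes of the 10 genes under all alternatives, 612 kept direction and side of the threshold, 35 reversed, 5 of the same direction passed only under the alternative, and 1, that of Il1rn without day 14 mouse 3, no longer passed. Among those reversed, Il1r2 for nanoparticle against day 14 also passed without nanoparticle mouse 3. None of the scalings moved the median of all genes by over 0.1. Genes called were 1845 for vehicle against day 14, 2636 for nanoparticle against day 14 and 0 for nanoparticle against vehicle. With limma-trend on log2(TPM + 1) they were 941 and 1446, on log2(TPM + 0.1) 926, 1475 and 1, and in the 2 groups alone 1672 for nanoparticle against day 14. DESeq2 called 19 for nanoparticle against vehicle, and 2 of the 10 genes for vehicle and 1 for nanoparticle against day 14. Leaving out 1 library gave 719 to 2162 calls for vehicle against day 14 and 1363 to 2934 for nanoparticle against day 14, and 0 to 2 of the 10 genes in each. The calls fell by over 1.5 times without day 14 mouse 1 (1012) or 3 (719) or vehicle mouse 1 (744) or 3 (866) for vehicle, and without day 14 mouse 1 (1570) or 3 (1363) or nanoparticle mouse 2 (1625) or 4 (1384) for nanoparticle.

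Il1b for vehicle against day 14 was 0.013 and 0.032 in limma-trend with pseudocounts of 1 and 0.1, and −0.46 to 0.51 with 1 library left out. For nanoparticle against day 14, Il1r1 was 0.0048 with DESeq2 size factors, 0.011 without scaling, 0.0098 with the stricter filter, 0.0066 in DESeq2, 0.0090 and 0.0097 in limma-trend and 0.0044 in the 2 groups alone. With 1 library left out, Il1r1 was −0.075 to 0.062 for nanoparticle against day 14, −0.017 to 0.13 for vehicle against day 14 and −0.12 to 0.024 for nanoparticle against vehicle. Under the same change Il1r2 was −1.15 to 1.29 for nanoparticle against day 14 and −0.53 to 1.92 against vehicle. Nlrp3 for vehicle against day 14 was −0.062 to 0.17, and for nanoparticle against vehicle Il18 was −0.091 to 0.14 and Tnf −0.42 to 0.13. Leaving out day 14 mouse 2 and nanoparticle mouse 3 together, chosen after seeing the data, gave 1 of the 10 genes called for nanoparticle against day 14 (Il1rn, −0.43, edgeR adjusted p = 0.0498). It also gave, against day 14, 0.51 for Il1b and −0.0056 for Il1r1 in vehicle lungs and −1.07 for Il1r2 and 0.15 for Il6 in nanoparticle lungs, and −0.53 for Il1r2 and −0.091 for Il18 in nanoparticle against vehicle. The cause was not tested.

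The mouse numbers did not pair the libraries: of 12 same-numbered pairs 2 had deviations correlated over 0.1 (r between −0.0744 and 0.148), and 4 libraries correlated best with their own number. With the number as a replicate block, 1673, 2419 and 0 genes and 1, 0 and 0 of the 10 genes were called for vehicle against day 14, nanoparticle against day 14 and nanoparticle against vehicle. Depth limits Il6, at 5 to 60 counts, and Il1r2, at 12 counts in its lowest library. Differences in Il6 between single lungs at 5 to 14 counts were not detectable at this depth.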

Other observations

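Markers of non-classical monocytes, the patrolling cells of the vessel wall, were higher in nanoparticle lungs than at day 14 for 6 of 8 genes and lower for 0, and higher for 1 of 8 in vehicle lungs (Adgre4, 0.85, a call lost without day 14 mouse 1 or 3 or vehicle mouse 1, 3 or 4, edgeR adjusted p = 0.0602 to 0.101). Of all genes, 6.16% were called higher and 8.56% lower in nanoparticle lungs relative to day 14. In vehicle lungs these shares were 3.79% and 6.51%. With 1 library left out at a time, 5 to 6 of the 8 were higher in nanoparticle lungs and 0 to 2 in vehicle lungs. Cd300e rose by 2.09 on the log2 scale (edgeR adjusted p = 0.000875), Adgre4 by 1.73 (adjusted p = 0.00108) and Treml4 by 1.43 (adjusted p = 0.00184) in nanoparticle lungs. The calls of these 3 genes held with each library left out in turn. In nanoparticle against vehicle lungs 0 of the 8 genes were called. The TPM ranges of the groups did not overlap for 5 of the 8, where 3.07% of all genes did not overlap. The marker lists were chosen with earlier results of these data known, so this count is a description and no test. Among classical monocyte markers, Ly6c2 (0.90) rose and Vcan (−0.84) and Fn1 (−0.96) fell in nanoparticle lungs relative to day 14, and Vcan (−0.72) and Fn1 (−0.92) fell in vehicle lungs, while 0 of the 8 rose there. Vcan and Fn1 are also expressed by fibroblasts. Of 8 tested mast cell and basophil markers, 2 rose in nanoparticle lungs and 1 in vehicle lungs relative to day 14, of 10 epithelial and endothelial markers 1 rose in each, and of 5 red blood cell markers 0 changed. The calls were those of Kit in both groups and Cyp11a1 in nanoparticle lungs, lost without day 14 mouse 1 or 3, vehicle mouse 1, 3 or 4 or nanoparticle mouse 1, 2 or 4 of the groups compared (adjusted p = 0.0551 to 0.103), and Sftpa1 in both groups. Sftpa1 was lost in nanoparticle lungs without day 14 mouse 3 or nanoparticle mouse 1, 2 or 3, and in vehicle lungs without day 14 mouse 1, 2 or 3, nanoparticle mouse 2 or vehicle mouse 1, 3 or 4 (adjusted p = 0.0502 to 0.115).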
